A study of Mus musculus with 8 samples.

Results

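The Frizzled genes Fzd1, Fzd2, Fzd3, Fzd4, Fzd5, Fzd6, Fzd7, Fzd8, Fzd9 and Fzd10 encode Wnt receptors of the mouse. Binding of Prdm4-EGFP around these 10 genes is described here. The 10 genes were taken by name, out of 22359 protein-coding genes with a transcription start site (TSS) in the mm9 annotation. For each gene, every ChIP-seq peak was listed that overlapped the gene or had its centre within 100 kb of one of its TSSs. The family was chosen by its peak scores, because the peak at Fzd1 had the highest mean score of all regions bound in every sample. The scores at Fzd1 and the comparison of Fzd1 with the other members are therefore a description and carry no test.

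Prdm4 is a zinc finger protein of the PR/SET domain family that binds DNA. The cells were CCE, a mouse embryonic stem cell (ESC) line of 129/Sv background, stably transfected to express full-length Prdm4 joined to EGFP. Chromatin was immunoprecipitated with an anti-GFP antibody in 2 experiments with clone B1 (replicates 1 and 2) and 2 experiments with clone B6 (replicates 3 and 4), and each of the 4 samples had a normal mouse IgG control. Each clone is a single transfected line, and all 4 samples carry the tagged protein from a transgene driven by the strong chicken beta-actin promoter in addition to endogenous Prdm4, so the peaks are those of an overexpressed fusion protein. No sample lacked the transgene. The labels do not say that the experiments on a clone came from separate cultures, so the spread between them may be technical. Peak lists hold no expression values, so neither the ESC identity of the cells nor the expression of any Frizzled gene could be checked.

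Frizzled proteins are membrane-spanning receptors with an extracellular cysteine-rich domain that holds the lipid of a Wnt ligand. Together with the co-receptors Lrp5 and Lrp6 they signal through Dishevelled to stabilise beta-catenin, and some members act instead in planar cell polarity. In mouse ESCs, Wnt and beta-catenin signalling favours self-renewal. Within the family, Fzd1, Fzd2 and Fzd7 are close relatives, as are Fzd5 and Fzd8, Fzd3 and Fzd6, and Fzd4, Fzd9 and Fzd10.

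The 4 lists of deposited peaks held between 1266 and 1806 peaks each, with scores from 1.3 to 428.83. The score is the value that the authors' peak caller gave to a peak, its scale is not named in the sources used here, and no read counts accompany it, so the depth behind each score is unknown. A shared region is the core where peaks of all 4 samples, each scoring 10 or more, overlap, and there were 627 of them, with a median mean score of 37.6 and a median width of 284 bp. Of these, 190 had their centre within 5 kb of a TSS.

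Because the motif matches under the Frizzled peaks carry much of the result, their sequences are shown first. The Prdm4 motif searched has 3 parts, GGG, a spacer of 1 to 4 bases, and CTNGAAAC. A complete GAAAC was required, up to 2 mismatches were allowed in the other defined bases, and both strands were read. Sequences are mm9, plus strand, 5′ to 3′, with the match in capitals. A match on the minus strand therefore reads from GTTTC.
Fzd1 exact match, chr5:4758030-4758059: tccaacggGTTTCTAGGCGCCCcccagtct
Fzd1 match with 1 mismatch, chr5:4758070-4758099: gggagggagGAGCCTTGAAACcgacgcgga
Fzd10 distal site with an exact match, chr5:129201886-129202068: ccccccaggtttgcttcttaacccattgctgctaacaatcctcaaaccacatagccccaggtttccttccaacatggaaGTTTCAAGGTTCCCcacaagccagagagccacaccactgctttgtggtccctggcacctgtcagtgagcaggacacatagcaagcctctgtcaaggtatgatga
Fzd5 exact match under a peak of 1 list, chr1:64778951-64778979: tcccctaGGGCTGGCTAGAAACtcctgtt
Fzd5 exact match under no peak, chr1:64785877-64785906: tggccctcgGGGTCTAGAAACatcccgggc

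Prdm4-EGFP bound at the TSS of Fzd1 and Fzd2 in all 4 samples, and within 5 kb of the TSS of none of the other 8 Frizzled genes in any sample. With a shared region within 5 kb of a TSS there were 2 of 10 members, where 0.930% of all protein-coding genes had one. The same 2 members were the only ones with a shared region within 100 kb, where 8.58% of all genes had one. When peaks of any score were counted, 5 of 10 members had a peak over the gene or within 100 kb in at least 1 list (26.3% of all genes), and 3 of 10 had such peaks in all 4 lists (12.2% of all genes). These 5 members, Fzd1, Fzd2, Fzd5, Fzd9 and Fzd10, carried 17 peaks at 6 sites, of which 3 were in all 4 lists, 1 in 3 lists and 2 in a single list. Since the family was chosen with its peaks known, nothing is read from the distance between these counts and the background.

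Fzd1, a receptor for canonical Wnt ligands, is a single-exon gene at chr5:4753842-4758216 on the minus strand. Its peak scored 313.42 in replicate 1, 305.99 in replicate 2, 391.23 in replicate 3 and 428.83 in replicate 4. It was the highest peak of both clone B6 lists and ranked 3 and 7 in the clone B1 lists. The mean score was 359.9 ± 60.0 (SD, n = 4), where the median of all shared regions was 37.6. The shared region with the second highest mean, at chr16:29012947-29013505, scored 362.41, 352.04, 306.3 and 399.47. Fzd1 was thus above it in both B6 replicates and below it in both B1 replicates, and the mean of that region, 355.1, lay within 1 SD of the mean at Fzd1. When regions were ordered by their lowest score, Fzd1 ranked 4 of 627.

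The peaks at Fzd1 were among the widest as well as the highest. They spanned 547, 531, 609 and 668 bp in replicates 1 to 4, and their centres lay 156, 152, 133 and 167.5 bp downstream of the TSS. The common core, chr5:4757799-4758329, was 531 bp wide and wider than most shared regions (97.9th percentile). Of its bases, 113 lay upstream of the TSS and 418 in the annotated 5′ UTR, and none was coding. The next protein-coding TSS, of the cyclin-dependent kinase gene Cdk14, was 507.2 kb away.

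Fzd2, which can signal through beta-catenin and through calcium, is also a single-exon gene, at chr11:102465745-102469372 on the plus strand. Its peak scored 200.71, 236.52, 288.01 and 279.62 in replicates 1 to 4, with ranks of 21, 20, 14 and 14 in the lists. All 4 values lay below the lowest score at Fzd1. The mean was 251.2 ± 40.5 (SD, n = 4), which placed the region 16th of all 627 and 6th of the 190 near a TSS. The core, chr11:102465422-102465888, was 467 bp wide, with 323 bases upstream of the TSS and 144 in the 5′ UTR, and its centre lay 90 bp upstream of the TSS. In contrast to Fzd1, most of the core was therefore upstream of the gene.

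Fzd1 thus scored above Fzd2 in each of the 4 samples. Because the zero of this scale is unknown, no ratio between scores is given, and a difference in score is not a fold of binding.

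**Figure D1:**
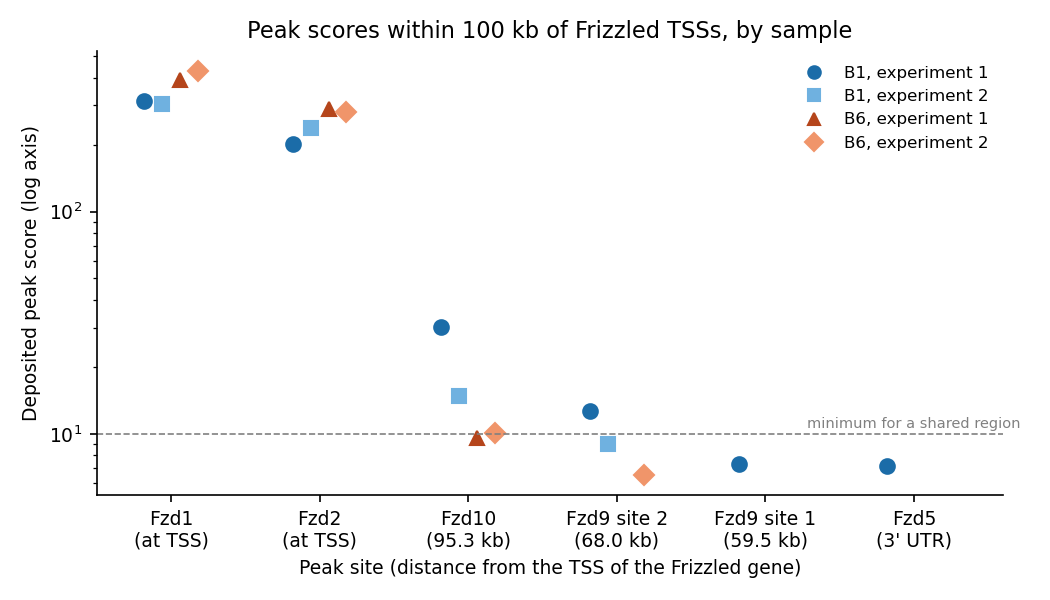
Deposited peak score (log axis) of each peak over a Frizzled gene or within 100 kb of its TSS, by site and sample, with blue for clone B1 and orange for clone B6. Scores at Fzd1 and Fzd2 lie at 200.71 or above in all 4 samples, whereas no score at another site exceeds 30.29.

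**Figure D2:**
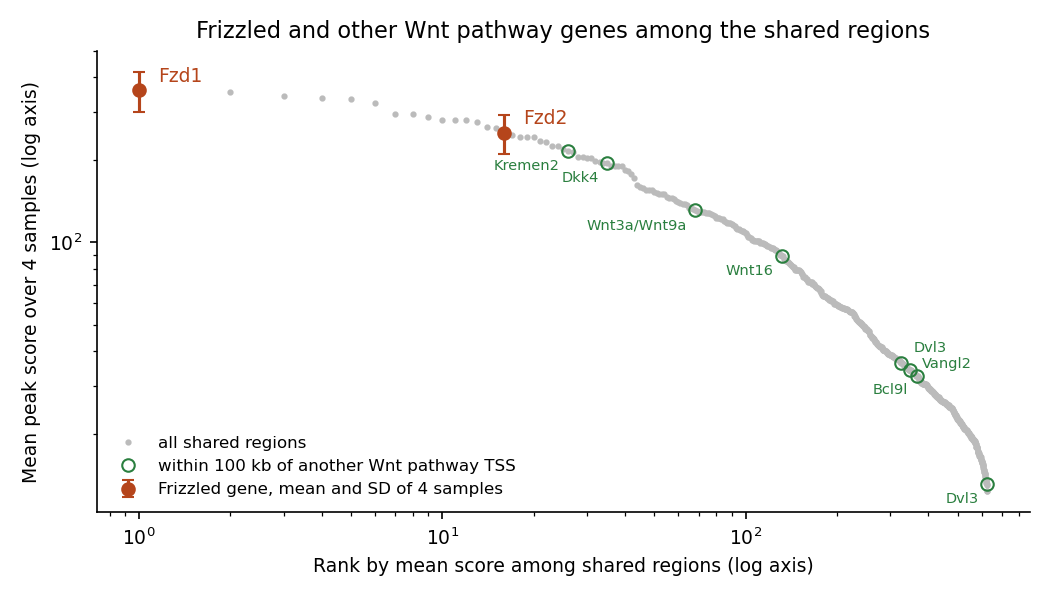
Mean score over 4 samples against rank for the 627 shared regions, both on log axes. Fzd1 (rank 1) and Fzd2 (rank 16) are shown with the SD of 4 samples, and green circles mark regions within 100 kb of a TSS of another Wnt pathway gene, the highest of which is the region near Kremen2 at rank 26.

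The remaining sites were weak. Fzd10, which sits at chr5:129106719-129109968 on the plus strand, had a site 95.3 kb downstream of its TSS that was present in every list with scores of 30.29, 14.74, 9.55 and 10.04. Replicate 3 fell just short of the minimum score of 10, so the site did not count as a shared region. At a minimum of 5, or without replicate 3, it did, and Fzd10 became the third member with one. The nearest protein-coding TSS to this site was not that of Fzd10 but that of Piwil1, a gene of the piRNA pathway, at 40.1 kb.

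Fzd9 lies at chr5:135724808-135727100 on the minus strand and had a pair of sites downstream of the gene, neither of which was a shared region. The site 68.0 kb from its TSS scored 12.72 in replicate 1, 9.02 in replicate 2 and 6.52 in replicate 4, and was missing from replicate 3. The site 59.5 kb from the TSS scored 7.3 in replicate 1 only and lay inside Baz1b, which encodes a chromatin remodelling subunit. Both sites were closer to the TSS of Baz1b (4.003 and 4.499 kb) than to that of Fzd9.

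Fzd5, required for development of the eye and of the yolk sac vessels, had a single peak in a single list. It scored 7.15 in replicate 1, covered 211 bases of the 3′ UTR at chr1:64778883-64779093, and lay 5.34 kb downstream of the TSS. In the other lists the nearest peak was 147.4, 204.1 and 328.8 kb from the TSS of Fzd5.

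Fzd3, Fzd4, Fzd6, Fzd7 and Fzd8 had no peak of any score within 100 kb of a TSS in any list. For Fzd3, which guides axons, the nearest peak was about 264 kb away in all 4 lists, with scores of 5.49, 8.16, 10.72 and 9.55. For Fzd6, a planar polarity receptor that orients hair, it was a shared region 201.5 kb upstream with scores of 80.21, 95.8, 85.16 and 63.8 and a rank of 143 of 627, closer to the TSS of Atp6v1c1 (44.7 kb). Among the members without a site, Fzd6 was thus the only one whose nearest peak was strong in every sample.

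For Fzd4, the receptor for Norrin in retinal vessels, the nearest peak was 364.3 kb from the TSS in replicates 2, 3 and 4, with scores from 6.25 to 11.52, and 6621 kb away in replicate 1. For Fzd7, the close relative of Fzd1 and Fzd2, the nearest peaks were 962.8, 664.4, 1369 and 1369 kb away in replicates 1 to 4. For Fzd8 they were 1019, 1561, 1019 and 1561 kb away. Fzd7 and Fzd8 were the members farthest from a peak in every list but replicate 1, in which Fzd4 was farther.

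Around the limit of 100 kb, the site just inside was that of Fzd10 at 95.3 kb. Just outside were a peak of 1 list at 147.4 kb from Fzd5, with a score of 11.44, and a site in 3 lists at 173.9 kb from Fzd9, with a mean score of 14.1.

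**Figure D3:**
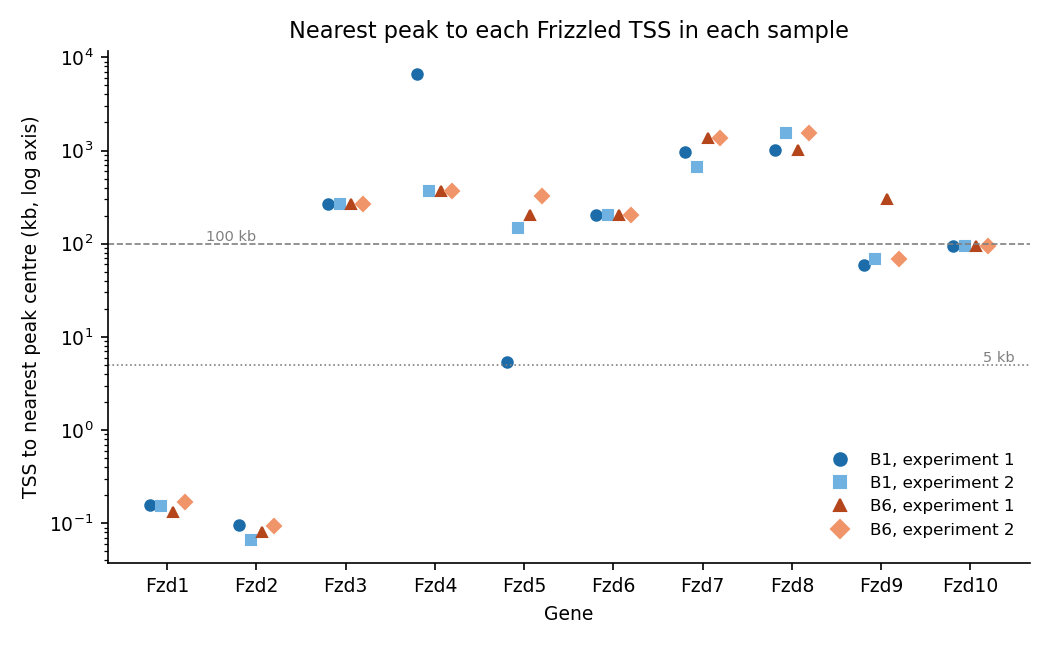
Distance in kb (log axis) from the TSS of each Frizzled gene to the centre of the nearest peak of any score in each sample, with dashed and dotted lines at 100 and 5 kb. All 4 samples of Fzd1 and Fzd2 lie at 0.168 kb or less, and Fzd3, Fzd4, Fzd6, Fzd7 and Fzd8 lie above 100 kb in every sample.

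Clones B1 and B6 were compared at the 3 sites present in every list. At Fzd1 the mean score was 309.7 in clone B1 and 410.0 in clone B6. At Fzd2 it was 218.6 in B1 and 283.8 in B6. At both genes the samples of the clones did not overlap, an order with B6 on top that 14.0% of the 627 shared regions had. Of the 20 regions with the highest mean scores, 10 had this order. At the distal site of Fzd10 the order was the opposite, with means of 22.5 in B1 and 9.80 in B6, and 30.8% of the shared regions had all B1 samples above all B6 samples. These orders are a description and carry no test. The smallest p that an exact two-sided permutation test of 2 samples against 2 allows is 0.333, so that test could not pass 0.05.

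The region at the TSS of Fzd1 held a pair of motif matches, on opposite strands. The exact match GGGCGCCTAGAAAC lay 171.5 bp downstream of the TSS on the strand of the gene. The match GAGCCTTGAAAC, with 1 mismatch, lay 131.5 bp downstream on the other strand, so the pair was 40 bp apart from centre to centre. The centre of the core, 152 bp downstream of the TSS, fell between the matches.

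At least 1 match was present in 92.3% of the 627 shared regions, against 11.5% of intervals of the same widths moved by 5 kb. An exact match was present in 50.7% of regions and in 0.319% of the moved intervals. The study derived this motif from the binding regions themselves, so its excess there is fixed by that choice and is no independent result. In the pair at Fzd1 the GAAAC ends pointed outward, away from each other. This arrangement, counted after it had been seen, is not particular to Fzd1 and occurred in 6 of 627 regions (0.957%) for pairs with up to 1 mismatch and centres within 100 bp, against 5 regions with GAAAC pointing inward and 197 with the matches on the same strand.

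**Figure D4:**
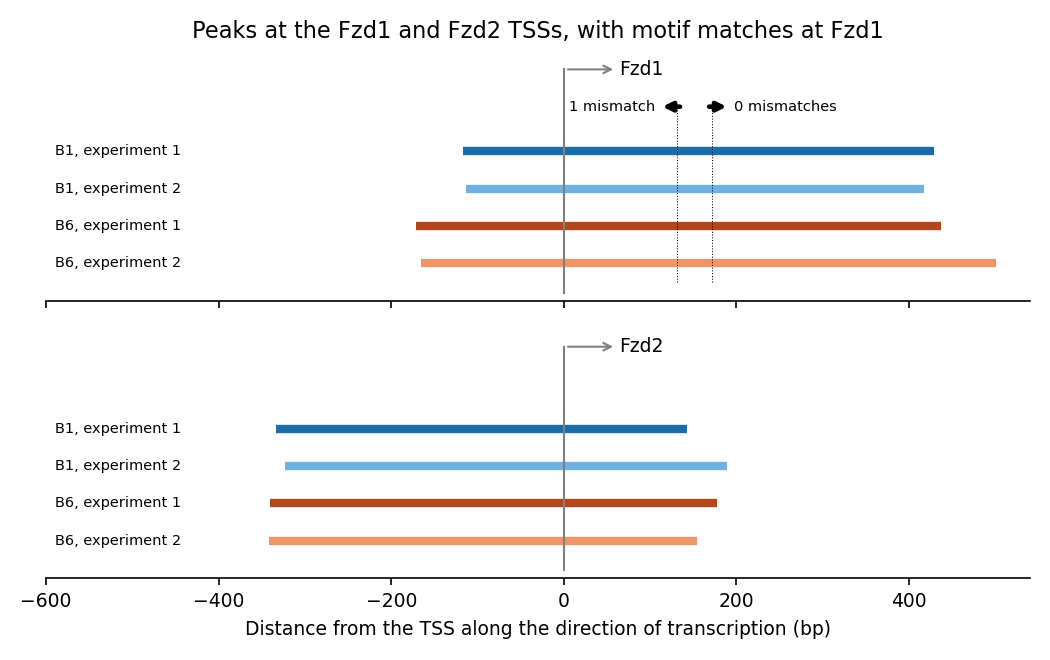
Extent of the peak of each sample (coloured bars) around the TSS of Fzd1 and Fzd2, in bp along the direction of transcription, with the motif matches at Fzd1 (black arrows, pointing towards the GAAAC end). Matches were drawn for Fzd1 only. The matches lie 131.5 and 171.5 bp downstream of the TSS of Fzd1 and point away from each other, and the peaks at Fzd2 lie mostly upstream of its TSS.

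Of the 4 weak sites, that of Fzd10 held the exact match GGGAACCTTGAAAC 5.5 bp from the centre of its core, and the 3′ UTR peak of Fzd5 held the exact match GGGCTGGCTAGAAAC. The Fzd9 site at 68.0 kb held GGATCCCTAGAAAC, which has 1 mismatch, and the Fzd9 site at 59.5 kb held no match. None of these 4 sites held more than 1 match. None of the 6 sites near Frizzled genes had a similar sequence elsewhere in the genome when aligned with BLAST at an E-value of 1e-10.

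Most exact matches near Frizzled genes carried no peak. Within 100 kb of the TSSs of the 10 members there were 26 exact matches, of which 5 lay under a peak of at least 1 list and 21 did not. Across the genome, 5.46% of the 11878 exact matches within 100 kb of a TSS lay under a peak of any list. Fzd3 had the most, 7, and none lay under a peak. Fzd6 had 3 and Fzd7, Fzd8 and Fzd9 had 1, 1 and 2, again without a peak, and Fzd4 had none at all.

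An exact match lay within 5 kb of the TSS in 8.57% of all genes and within 250 bp in 0.501%. Fzd1 was among the genes with one within 250 bp, and it lay under a peak in all 4 lists. The exact match of Fzd5, at -1.57 kb from its TSS (upstream), lay under no peak in any list. With up to 2 mismatches, every one of the 10 members had at least 1 match within 5 kb of a TSS that lay under no peak. Matches this loose are common, and 11.5% of the much shorter intervals moved by 5 kb held at least 1. The share of all genes with such a match was not computed, so nothing is read from this count.

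The 5 exact matches under peaks had a spacer of 3 or 4 bases between GGG and the CT. Of the 18 exact matches near members with a spacer of 1 or 2 bases, none lay under a peak. Genome-wide, 4.56%, 1.71%, 4.94% and 10.4% of exact matches with spacers of 1, 2, 3 and 4 bases lay under a peak, so spacers of 2 bases were bound least often and those of 4 bases most often. Spacers of 1 and 3 bases lay under a peak about equally often. With shares this low for spacers of 1 and 2 bases, none of 18 is near the background and is no result about the members. This comparison was made after the matches had been seen and is a description.

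The regions at Fzd1 and Fzd2 were rich in CpG. GC content was 66.5% at Fzd1 and 59.7% at Fzd2, where the median of all shared regions was 50.5%. The ratio of observed to expected CpG was 0.802 at Fzd1 and 0.630 at Fzd2, where the median was 0.184. Both regions were thus in the upper tail of the shared regions for GC (96.7th and 92.5th percentile) and for CpG (96.2nd and 91.4th percentile). These percentiles are over all 627 shared regions, of which only 190 had their centre within 5 kb of a TSS. The regions near a TSS were not compared on their own, so the composition cannot be called particular to the Frizzled genes. The core at Fzd10 held no CpG at all, and the 4 weak sites had CpG ratios from 0 to 0.361. The part of base composition in the scores was not tested.

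**Figure D5:**
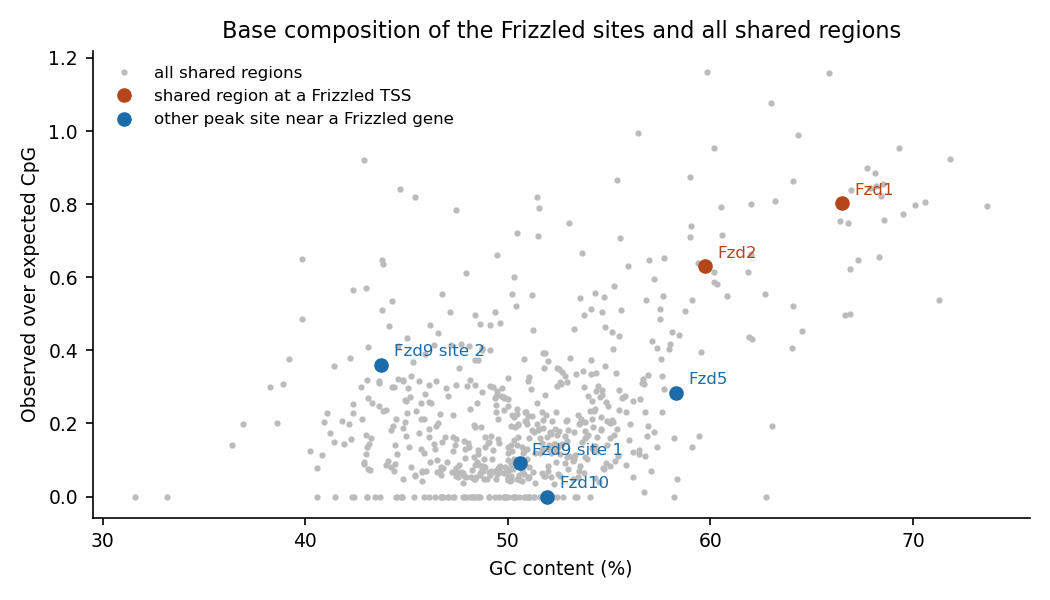
GC content against the ratio of observed to expected CpG for the 627 shared regions (grey) and the sites near Frizzled genes. The regions at the TSSs of Fzd1 (66.5%, 0.802) and Fzd2 (59.7%, 0.630) lie at the upper right, and the weak sites have a CpG ratio of 0.361 or less.

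By the likeness of their 4 log10 scores (Euclidean distance), the shared regions closest to Fzd1 had their nearest TSS at Usp6nl (mean score 343.3), Bahcc1 (335.8) and Mog (332.6), with ranks of 3, 4 and 5. Those closest to Fzd2 had it at Zbtb8a (247.5), A430084P05Rik (241.7) and Tmem108 (242.5). The likeness rests on 4 samples and mainly reflects the level of the scores.

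The rest of the Wnt pathway was examined through 86 genes in 10 groups by role. None had a shared region within 5 kb of a TSS, where 0.930% of all genes had one, and 8 of 86 (9.30%) had one within 100 kb, close to the 8.58% of all genes. Both counts are near the background and are no result about these genes.

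Of the secreted and membrane inhibitors, 2 of 14 had a shared region within 100 kb. The region near Kremen2, which encodes a membrane partner of Dickkopf proteins, lay 25.8 kb upstream of its TSS, but only 13.5 bp from that of Flywch1, and scored 229.45, 248.14, 169.61 and 213.26. The region near Dkk4, a secreted inhibitor of Lrp co-receptors, lay 10.03 kb upstream and scored 180.89, 208.28, 206.22 and 181.3. Both had mean scores (215.1 and 194.2) below that at Fzd2, and Dkk4 was the only gene of the lists to be the nearest gene of its region.

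Of the 19 ligands, 3 had a shared region within 100 kb. Wnt3a and Wnt9a shared a region with scores of 119.98, 149.11, 153.54 and 100.22, which was 88.9 and 72.7 kb from their TSSs and closer to Prss38. The region of Wnt16 was 97.2 kb away and scored 92.32, 120.25, 75.72 and 68.22. The remaining genes with a region were Dvl3 among 12 cytoplasmic transducers, Bcl9l among 8 nuclear effectors and Vangl2 among 7 planar polarity partners, with mean scores from 13.1 to 36.4. None of the 6 co-receptors and other Wnt receptors and none of the 8 Wnt target genes had one.

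Below the limits for a shared region, peaks of any score lay within 5 kb of a TSS at 2 of the 86 genes. The share of all protein-coding genes with such a peak is not given here, so nothing is read from this count. Prickle1, a planar polarity gene, had a peak in all 4 lists, 3.96 to 4.02 kb from its TSS, with scores of 7.02, 4.8, 6.85 and 8. Gsk3b, the kinase that marks beta-catenin for destruction, had a peak in replicate 1 with a score of 10.98, 0.571 kb from its TSS. All of these scores lay below the lowest score at Fzd2, 200.71.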

How the data were processed

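ChIP-seq was done on 4 anti-GFP samples of ESCs expressing Prdm4-EGFP. The authors aligned reads with Stampy (mm9), ran MACS2 on each anti-GFP sample with IgG as the control, both at default settings, and deposited 1 list per sample in which each peak carries a score. The 4 samples were treated as replicates of 1 condition, and the 4 IgG samples were not analysed here.

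From the lists, peaks scoring at least 10 were intersected over the 4 samples, with a minimum overlap of 1 bp. A distance runs from the middle of a peak or core to the TSSs of protein-coding transcripts (GENCODE annotation of NCBIM37, the assembly of mm9). Ranks count the peaks or regions with a higher score. Clones were compared by the order of their scores, with no test. The motif search, base composition and BLAST+ alignments used the mm9 sequence. The motif matches in the region at Fzd2 are not reported one by one here, so their absence from the text does not mean that there were none.

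The members, the Wnt pathway lists and the tests were chosen with earlier results of these data known. Named were all 10 Frizzled genes, the 5 other Wnt genes whose regions scored highest, any bound within 5 kb of a TSS, and for Fzd1 and Fzd2 the 3 regions with the most similar scores. Other genes were named after their values were seen. Alternatives covered the minimum score, overlap, TSS set, distance, summary of the scores, mismatches and leaving out each replicate.

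The steps were tested on simulated data, in which 200 of 200 planted regions, 200 of 200 distances and 200 of 200 motifs were recovered. Python 3.11.15, numpy 2.4.6, scipy 1.17.1, pysam 0.24.0, matplotlib 3.10.9, samtools 1.23.1 and BLAST+ 2.17.0 were used.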

Additional observations from a re-analysis of the deposited data

Results flagged for a closer look

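In 4 samples, a value was singled out when its gap to the nearest of the others took up nearly the whole range of all 4 (Dixon's criterion at the 95% level). Of 32 sets of 4 values checked for the Frizzled genes and the Wnt pathway regions, 3 had such a value. The rate of about 1 in 20 that chance gives under this criterion is for independent, normally distributed values. Distances to the nearest peak jump when a weak peak is not listed, and some sets mix scores of different peaks. That rate therefore does not apply here, and nothing is read from the count. The peak nearest to the TSS of Fzd4 was 6621 kb away in replicate 1, and 364.3 kb away in each of the other samples, because the weak peak at that distance (6.25 to 11.52) was not listed in replicate 1. The peak nearest to the TSS of Fzd9 was 304.1 kb away in replicate 3, and 59.5 to 68.0 kb away in the others. The peak nearest to the TSS of Fzd8 scored 19.79 in replicate 4 and 6.09, 8.20 and 7.14 in replicates 1, 2 and 3. In replicates 2 and 4 it was the peak 1561 kb away, and in replicates 1 and 3 the peak 1019 kb away. None of the scores or peak positions at the TSSs of Fzd1 and Fzd2 stood apart in this way.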

How the results depend on the processing

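Of 153 values recomputed under alternatives, 128 stayed within the limit set for them, 25 moved and none reversed. The limit for counts was wide. With no minimum score, Frizzled genes with a shared region within 100 kb rose from 2 to 3 and other Wnt genes from 8 to 12. Both changes stayed within the limit. Some values could not have changed, so the tally is no measure of stability. Fzd1 and Fzd2 had a shared region within 5 kb of a TSS under every minimum score and without each replicate. That outcome was fixed by their scores, all at 200.71 or above, and leaving out a replicate only loosens the requirement. It is therefore no separate support. Fzd10 joined Fzd1 and Fzd2 within 100 kb with no minimum score, at a minimum of 5 and without replicate 3. The background share of genes within 100 kb was 11.8% with no minimum score, 10.9%, 6.04% and 2.92% at minimums of 5, 20 and 50, 4.72% for 50 kb and 15.5% for 200 kb, and 8.82% to 9.73% without 1 replicate. The share within 5 kb was 1.31% with no minimum score, 1.19%, 0.577% and 0.255% at minimums of 5, 20 and 50, 0.416% for 1 kb and 1.38% for 10 kb. The moves follow from the settings, which change how many regions or genes qualify. Of the other Wnt genes, 1 (Prickle1) was within 5 kb with no minimum score, and within 100 kb 5 were counted at a minimum of 50, 3 for 50 kb and 16 for 200 kb. By the lowest of the 4 scores, Fzd1 ranked 4 and Fzd2 scored 200.71. Without 1 replicate, Fzd1 ranked 1 or 2 (2 without replicate 3 and without replicate 4) and Fzd2 ranked 15 to 18. Members with a match outside any peak within 5 kb numbered 1 for exact matches and 3 with up to 1 mismatch, against 10. The share of all genes with such a match was not computed for these counts. Outward pairs, a count added after the data were seen, were in 3 regions for exact matches and in 16 with up to 2 mismatches. No paired analysis was possible because the IgG samples that share replicate numbers with the anti-GFP samples have no peak lists analysed here. Scores without read counts do not show what depth limits, and a gene without a peak may be bound below the calling threshold.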
